A study of Mus musculus with 12 samples.

Results

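Whether the answer of muscle to aerobic exercise depends on REDD1 was asked by subtracting, gene by gene, the exercise effect of wild-type mice from that of REDD1 knockout mice. All 12 arrays of the series entered this comparison, with wild-type and REDD1 knockout mice each kept sedentary or exercised, and 3 arrays in each of the 4 groups. The tissue was plantaris, a mainly fast-twitch muscle of the calf. The mice were male, 12 weeks old and had gone without food for 3 hours. Exercised mice completed 1 bout, and their muscles were taken 1 hour after it ended. The labels name only the knockout of REDD1, encoded by the gene Ddit4. Its construction, the cells that carry it, the strain and the intensity of the bout are not given in the sources used here.

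Expression was read as log2 values from whole-transcript arrays, and 13747 of the 22180 genes with a symbol were bright enough to test. Every effect below is a log2 difference of group means, so 1 equals a 2-fold change. The difference of effects is (knockout exercised minus knockout sedentary) minus (wild-type exercised minus wild-type sedentary). A negative value means that the change with exercise was lower in the knockout, which for a gene that rose means a smaller rise. Levels were compared between arrays and never between genes.

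REDD1 is a small protein that cells make within an hour or so of stress, including energy shortage, low oxygen and glucocorticoid hormones. It acts through the TSC1-TSC2 complex, which turns off the GTPase Rheb, the direct activator of mTORC1, and so it restrains the kinase complex that promotes ribosome and protein production. Exercise raises REDD1 in muscle at a time when mTORC1 activity and the early gene response are both in motion. The arrays read RNA, so the activity of mTORC1 itself was not measured.

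The 7 identity markers of fast skeletal muscle were all measured, and their mean level lay between -0.049 and 0.044 of the 12-array mean on every array. Their median difference of effects was 0.03. Ddit4 itself lay between 8.40 and 9.05 in the wild-type exercised arrays, above all others, at 5.83 to 6.13 in wild-type sedentary ones and between 5.08 and 5.44 in knockout sedentary ones. In knockout exercised arrays it lay at 6.46, 5.72 and 6.77, overlapping the wild-type sedentary range. Where its probes lie relative to the deleted part is not given, so the remaining knockout signal cannot be assigned to a transcript. A pair of arrays stood apart. In knockout sedentary replicate 3 the extracellular matrix markers lay 0.815 above the 12-array mean, against 0.133 and -0.116 in the others of its group. Wild-type exercised replicate 1 stood 0.773 above the mean in immediate-early genes, where its group's other arrays stood at 0.092 and 0.22. Several of the results that rest on these arrays are given with and without them, but not all.

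The exercise responses of the genotypes could not be told apart at any single gene by the test across all genes. Of 13747 genes, 0 (0.0%) had a difference of effects at an adjusted p under 0.05 (limma with Benjamini-Hochberg adjustment), and the smallest adjusted p was 0.633. At an unadjusted p under 0.05 there were 620 genes (4.51%), of which 324 (2.36%) were lower and 296 (2.15%) higher in the knockout, and 687.4 would fall there if no gene differed. Large differences were rare: 19 genes (0.138%) lay at -1 or below and 2 (0.0145%) at 1 or above. Over all genes tested the median difference was 0.02.

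The precision of 3 arrays per group sets what such a comparison can show. The median standard error (SE) of the difference was 0.19, and the median 95% interval reached 0.40 to either side. A gene with that SE would have needed a difference of 1.35, or 2.55-fold, to pass alone. Even so, the 95% interval lay wholly between -1 and 1 for 13023 genes (94.7%), so for these genes a 2-fold difference between the responses lay outside the interval, without adjustment for the number of genes.

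**Figure D1:**
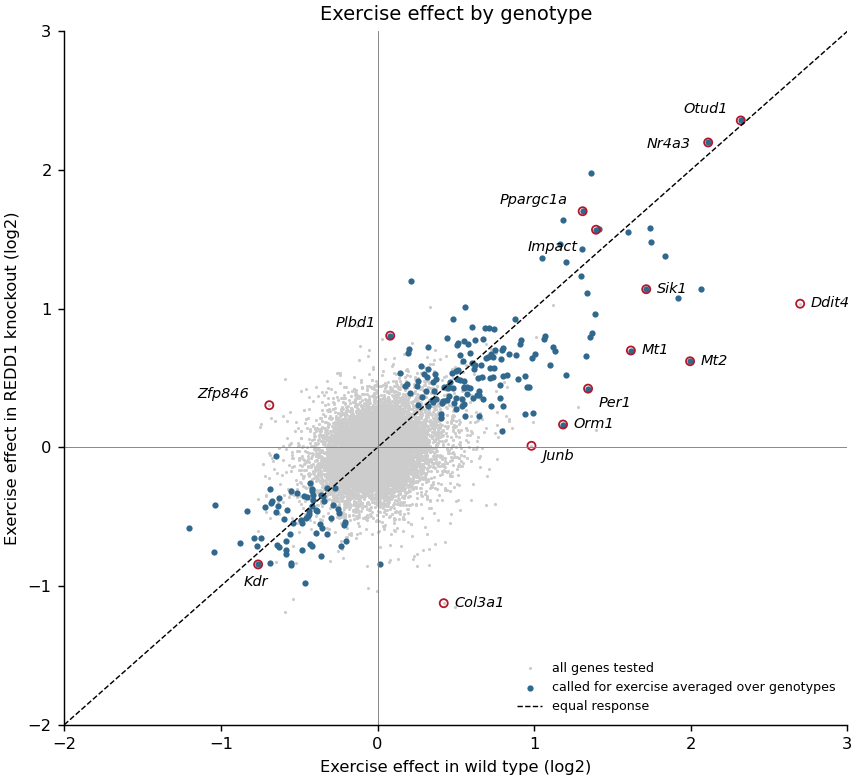
Each point is a gene, with its exercise effect in wild-type muscle on the horizontal axis and in REDD1 knockout muscle on the vertical axis, both as log2 changes over 3 arrays per group; the diagonal marks equal effects. Ddit4 (2.70 in wild type, 1.04 in knockout) and Mt2 (2.00 and 0.62) lie below the diagonal, while Impact (1.40 and 1.57) and Irs2 (1.41 and 1.57) lie close to it.

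Beside Ddit4, whose difference of -1.66 (SE 0.31) is that of the deleted gene, the smallest p belonged to Mt2. Metallothioneins are small cysteine-rich proteins that bind zinc and copper, and their genes are induced by zinc through the factor MTF1 and by glucocorticoids. MTF1 acts through metal response elements. The 250 bases before the start sites of Mt2 and Mt1, neighbours on the same strand with starts 6471 bases apart, are shown because both genes rose with exercise in wild type and both had a smaller response in the knockout. Capitals mark matches to the cores TGCACNC or TGCGCNC on either strand. The sequences are those of RefSeq on GRCm38.p6, plus strand, for chr8:94172368-94172617 (Mt2) and chr8:94178839-94179088 (Mt1).
Mt2: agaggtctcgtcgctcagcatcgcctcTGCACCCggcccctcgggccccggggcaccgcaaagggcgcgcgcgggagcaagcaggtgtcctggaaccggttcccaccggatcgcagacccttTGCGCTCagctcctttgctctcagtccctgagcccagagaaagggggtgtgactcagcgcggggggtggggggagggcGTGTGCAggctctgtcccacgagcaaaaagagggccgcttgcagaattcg
Mt1: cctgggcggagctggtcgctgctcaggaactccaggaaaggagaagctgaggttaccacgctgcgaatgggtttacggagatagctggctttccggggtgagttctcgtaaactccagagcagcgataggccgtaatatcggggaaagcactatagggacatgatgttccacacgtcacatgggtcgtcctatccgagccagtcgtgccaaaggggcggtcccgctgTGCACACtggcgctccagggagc
The Mt2 window held 3 matches, 2 on the plus strand and 1 on the minus strand, and the Mt1 window held 1. Of 32851 promoter windows of this length, 21.4% held at least 1 match and 1.26% at least 3. A match describes the letters only. Only the 250 bases before the annotated start were searched, so any match after it is not in these counts. The counts therefore do not give the number of metal response elements of either gene.

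The lower response of Mt2 in the knockout lay in the resting muscle. Its levels were 9.06, 9.09 and 8.93 in wild-type sedentary arrays, 11.52, 10.64 and 10.90 in wild-type exercised ones, 10.45, 10.06 and 10.43 in knockout sedentary ones and 11.21, 10.90 and 10.69 in knockout exercised. The knockout sedentary arrays all lay above the wild-type sedentary ones, and the exercised arrays of both genotypes overlapped. Knockout minus wild type was 1.29 at rest and -0.09 after exercise, and the difference of effects was -1.38 (SE 0.26, limma unadjusted p = 9.21e-05, adjusted p = 0.633). Without both arrays that stood apart it was -1.07.

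Mt1, the neighbouring metallothionein, showed the same layout. It lay at 7.57, 7.38 and 7.36 in wild-type sedentary arrays, 9.49, 8.49 and 9.18 in wild-type exercised ones, 8.36, 8.13 and 8.39 in knockout sedentary ones and 9.32, 9.05 and 8.61 in knockout exercised. As for Mt2, the sedentary arrays separated by genotype and the exercised arrays did not. The exercise effect was 1.62 in wild type, where it passed the test, and 0.70 in the knockout, with a difference of -0.92 (SE 0.30, limma unadjusted p = 0.00738, adjusted p = 0.997). Mt1 and Mt2 resemble each other in sequence, and how well their probes separate them is not given. Among 15 measured genes of metallothionein and zinc handling the median difference was -0.09, 11 were below 0 against 46.8% of all genes, and Mt1 and Mt2 alone reached an unadjusted p under 0.05. Slc39a14, a zinc and iron importer, rose by 1.0 in wild type and had an effect of 0.67 in the knockout, a difference of -0.33 with a 95% interval of -0.74 to 0.08. Mtf1 itself had a difference of -0.11.

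Orm1, Apbb3 and A4galt, also at the lower end of the ranking, overlapped between genotypes at rest and separated after exercise. The 12 genes with the smallest p in each direction were described further. They were chosen by the difference itself, so their values are a description. Orm1 encodes the acute-phase plasma protein orosomucoid. It lay at 6.18, 6.44 and 6.40 in wild-type sedentary arrays, 7.38, 7.30 and 7.89 in wild-type exercised ones, 6.20, 6.42 and 6.23 in knockout sedentary ones and 6.19, 6.45 and 6.71 in knockout exercised. All 3 wild-type exercised arrays stood above the other 9, which overlapped. The difference was -1.02 (SE 0.23), made of -0.06 between genotypes at rest and -1.08 after exercise.

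Apbb3, an adaptor that binds the amyloid precursor protein, rose in wild type from 5.62, 5.88 and 5.78 to 6.98, 6.95 and 6.97. In the knockout it went from 6.05, 5.80 and 5.86 to 6.58, 6.24 and 6.47. Exercised arrays lay above sedentary ones in both genotypes, and the wild-type exercised arrays lay above the knockout exercised ones. The effects were 1.20 and 0.52 and the difference -0.68 (SE 0.16). A4galt, the enzyme that makes the glycolipid globotriaosylceramide, lay at 6.52, 6.58 and 6.46 in wild-type sedentary arrays and 7.47, 7.14 and 7.34 in wild-type exercised. Its knockout arrays lay at 6.75, 6.52 and 6.87 at rest and 6.78, 6.72 and 6.99 after exercise, so only the wild-type exercised arrays stood apart. The effect was 0.79 in wild type and 0.11 in the knockout.

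Most of the other genes at this end had opposite signs in the genotypes. Mrap, an accessory protein of melanocortin receptors, had effects of 0.61 in wild type and -0.26 in the knockout. Acd, which encodes the telomere protein TPP1, had 0.39 and -0.26, and the T-box factor Tbx10 had 0.38 and -0.38. Pcolce, which speeds the trimming of procollagen, lay at 7.75, 7.81 and 7.78 in wild-type sedentary arrays, 7.91, 8.05 and 7.97 in wild-type exercised ones, 8.12, 7.73 and 8.22 in knockout sedentary ones and 7.41, 7.69 and 7.54 in knockout exercised. The knockout exercised arrays were the lowest of all 12, and the difference was -0.67 (SE 0.17). The olfactory receptor genes Olfr1219 and Olfr1414 had differences of -0.86 and -0.90, and Ms4a6b, a leukocyte membrane protein gene with a group mean below the median of the table, had -0.89.

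The 12 genes at the other end of the ranking began with Zfp846 and Atrnl1. Zfp846, a zinc finger gene, lay at 5.53, 5.60 and 5.41 in wild-type sedentary arrays, 4.74, 5.20 and 4.53 in wild-type exercised ones, 4.85, 4.98 and 4.77 in knockout sedentary ones and 5.21, 4.98 and 5.31 in knockout exercised. The wild-type sedentary arrays were the highest, and the other 9 ran from 4.53 to 5.31. Knockout minus wild type was -0.65 at rest and 0.34 after exercise. Atrnl1, an attractin-like membrane protein, fell in wild type from 7.74, 7.73 and 7.62 to 7.16, 6.99 and 6.99, a change of -0.65. In the knockout it lay at 7.29, 7.41 and 7.51 at rest and 7.44, 7.33 and 7.25 after exercise, a change of -0.06 between overlapping groups. The difference was 0.59 (SE 0.14).

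Asb15 encodes a substrate adaptor of a ubiquitin ligase found mainly in striated muscle. It lay at 10.08, 9.65 and 9.75 in wild-type sedentary arrays, 9.65, 9.36 and 9.70 in wild-type exercised ones, 9.39, 9.65 and 9.11 in knockout sedentary ones and 9.99, 9.90 and 9.86 in knockout exercised. The wild-type groups overlapped, while the knockout exercised arrays lay above all knockout sedentary ones. Kcnj2, the inward rectifier potassium channel Kir2.1, had levels of 8.65, 8.67 and 8.72 in wild-type sedentary arrays and 7.70, 8.09 and 8.44 in wild-type exercised, against 7.97, 8.38 and 8.46 and then 8.47, 8.53 and 8.49 in the knockout. Its wild-type groups were separate, and knockout sedentary replicate 1 lay below the rest of its genotype. The differences were 0.79 (SE 0.20) for Asb15 and 0.83 (SE 0.22) for Kcnj2. Efna1, a membrane-bound ligand of Eph receptors, had effects of -0.47 in wild type and 0.27 in the knockout.

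Among the 12 genes named for a positive difference, exercise in the knockout passed the test across all genes (adjusted p under 0.05 with limma) for Plbd1 and Clec2d. Asb15 had an effect of 0.53 there and Mreg 0.39, and neither passed. Plbd1, a phospholipase B-like gene, lay at 8.31, 8.10 and 8.21 in wild-type sedentary arrays, 8.04, 8.41 and 8.42 in wild-type exercised ones, 7.22, 7.19 and 7.58 in knockout sedentary ones and 7.91, 8.41 and 8.09 in knockout exercised. The knockout sedentary arrays were the lowest of the 12 and the other groups overlapped. Its effects were 0.08 in wild type and 0.80 in the knockout. Clec2d, a C-type lectin gene, had effects of 0.04 and 0.55. Inpp1, an inositol phosphatase, had -0.74 and 0.17, and the retinoic acid receptor gene Rarb had -0.44 and 0.36. Mreg had a difference of 0.53, the monoamine oxidase gene Maob 0.56, and the microRNA gene Mir3092, with group means below the median of the table, 1.0.

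**Figure D2:**
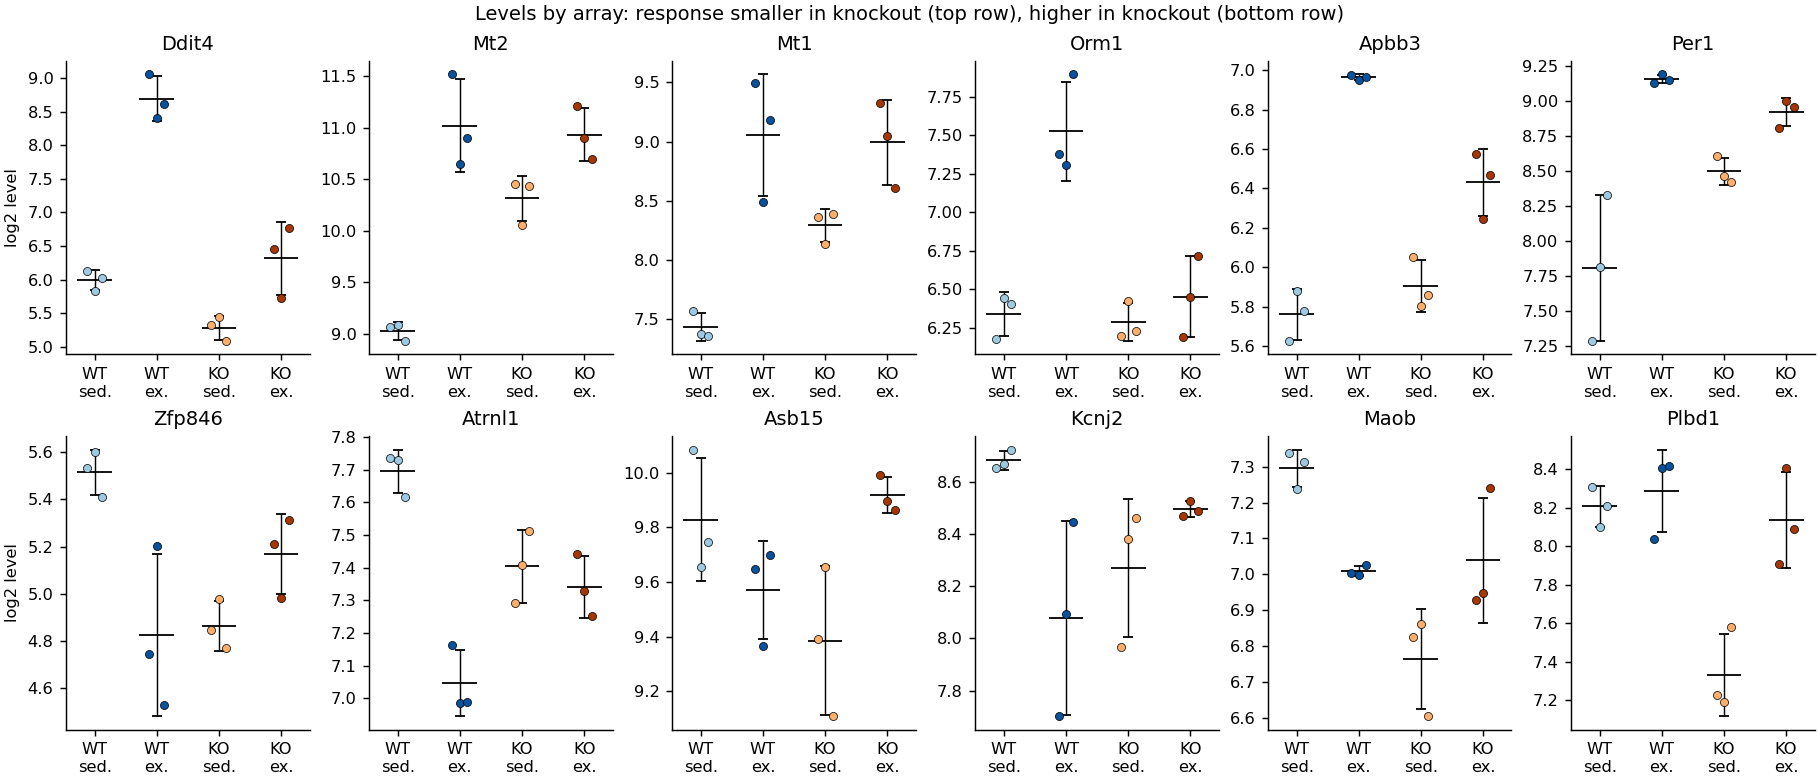
Deposited log2 levels on each of the 12 arrays, by group (WT, wild type; KO, knockout; sed., sedentary; ex., exercised), for genes with a smaller exercise response in the knockout (top row) and genes with a higher one (bottom row); points are arrays, horizontal lines are means of 3 and vertical bars are SDs. For Orm1 the 3 wild-type exercised arrays, at 7.30 to 7.89, lie above the other 9, and for Plbd1 the 3 knockout sedentary arrays, at 7.19 to 7.58, lie below the other 9.

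Across these 24 genes, Ddit4 included, the gap between genotypes was larger at rest for 11 and after exercise for 13, and in 21 it had opposite signs in the 2 conditions. Exercise alone passed the test in wild type for 6 of them, Ddit4 among them, and in the knockout for 3. All 24 kept an unadjusted p under 0.05 with any 1 array left out, which their choice by small p favours.

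For genes of the pathway that REDD1 feeds into, the differences lay mostly close to 0. Of 38 genes of REDD1 and mTORC1 signalling, Ddit4 left out, 37 were measured, and 0 passed the test for exercise in either genotype, where 0.567% of all genes passed in wild type and 0.276% in the knockout. Their median exercise effect was -0.06 in wild type and 0.05 in the knockout, and the median difference was 0.12, against 0.02 over all genes. Of the 37, 1 reached an unadjusted p under 0.05, as 4.51% of all genes did. For 35 the 95% interval lay between -1 and 1, as it did for 94.7% of all genes. Without both arrays that stood apart the median was 0.01.

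Sesn1 was the gene at the top of this group. Sestrins are stress-induced proteins that hold back mTORC1 when leucine is scarce. Sesn1 lay at 7.89, 7.56 and 7.58 in wild-type sedentary arrays, 8.0, 7.50 and 7.43 in wild-type exercised ones, 7.71, 8.05 and 8.0 in knockout sedentary ones and 8.73, 8.37 and 8.36 in knockout exercised. Only the knockout exercised arrays stood above the others. Its effects were -0.03 in wild type and 0.57 in the knockout, and the difference was 0.59 (SE 0.22, limma unadjusted p = 0.0176, adjusted p = 0.997). Without both arrays it was 0.81. Sesn2, its paralogue and a target of the stress factor ATF4, lay below the median of the table in wild-type sedentary muscle and ran the other way, with effects of 0.49 and -0.05 and a 95% interval of the difference from -1.19 to 0.13.

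The core components lay close to 0. The kinase gene Mtor had a difference of 0.14 (95% interval -0.17 to 0.45) and Rptor, its scaffold, -0.10 (-0.48 to 0.28). Upstream, Tsc1 had 0.19 (-0.34 to 0.73), Tsc2 -0.07 (-0.36 to 0.21) and Rheb 0.12 (-0.17 to 0.42). Ddit4l, the paralogue of Ddit4 that codes for REDD2, had effects of -0.49 in wild type and -0.35 in the knockout, neither of which passed the test, and a difference of 0.14 (-0.35 to 0.63). Deptor, an inhibitor bound to mTOR, had -0.32 (-0.71 to 0.08). The translation repressor gene Eif4ebp1 had 0.27 (-0.08 to 0.62), and Flcn, which acts in amino acid signalling to mTORC1, had 0.30 (-0.03 to 0.63). Among 10 AMPK subunit and LKB1 genes the median difference was 0.06 and 0 reached an unadjusted p under 0.05. Without wild-type exercised replicate 1 that median was -0.0075.

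In insulin and growth factor signalling, exercise passed the test upward for Irs2 and Foxo1 in wild type (0.473% of all genes) and for Irs2 in the knockout (0.24%). Irs2, the insulin receptor substrate, went from 7.07, 7.15 and 7.46 to 8.87, 8.52 and 8.53 in wild type. In the knockout it went from 7.02, 7.06 and 7.34 to 8.77, 8.90 and 8.48. The exercised arrays lay above the sedentary ones in both genotypes, and within each condition the genotypes overlapped. It rose by 1.41 in wild type and 1.57 in the knockout, and the 95% interval of the difference ran from -0.27 to 0.59. Foxo1, a forkhead factor restrained by insulin, had effects of 0.99 and 0.64 and a difference of -0.34 (95% interval -0.85 to 0.17). Of 19 measured genes in this list, Igfbp4, which binds and inhibits insulin-like growth factors, was lower at -0.80 (SE 0.24). The forkhead factor gene Foxo4 was higher at 0.33 (SE 0.13). Both had an unadjusted p under 0.05, as 2.36% of all genes did in the lower and 2.15% in the higher direction. Igfbp4 was at 8.93 in knockout sedentary replicate 3, above 8.39 and 8.10 in its group, and without both arrays its difference was -0.42. The remaining 17 did not reach that level, and the list's median was 0.09. That median was -0.02 without wild-type exercised replicate 1 and 0.04 without both arrays that stood apart.

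To describe the response that the genotypes shared, 219 genes besides Ddit4 were taken by their exercise effect averaged over the genotypes (limma, adjusted p under 0.05), a contrast that does not overlap with the difference and favours neither genotype. With Ddit4, 1.6% of all genes passed, 1.09% upward and 0.509% downward. The 219 were 149 genes higher and 70 lower after exercise. The choice by an average largely fixes that both genotypes share a direction, as 218 of the 219 did, with Olfr1219 as the exception. The median size of the response was 0.58 in wild type and 0.54 in the knockout. Turned so that negative means a smaller response in the knockout, the difference had a median of -0.04, with 122 genes smaller in the knockout and 97 smaller in wild type.

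The 95% intervals set limits on a loss in the knockout. For 183 of the 219 (83.6%) the interval of the difference lay between -1 and 1. That limit is wider than the median wild-type response of 0.58. For 171 the interval excluded a loss as large as the whole wild-type response. The average used to choose the genes contains the knockout effect, which favours that count. At an unadjusted p under 0.05 the response was smaller in the knockout for 21 genes and larger for 10. Of all genes tested, 4.51% reached that p in either direction. For 188 of the 219 the interval included 0. As a score per array, the mean of these genes, signed by direction, was -0.422, -0.397 and -0.281 in wild-type sedentary arrays, 0.38, 0.231 and 0.344 in wild-type exercised ones, -0.266, -0.302 and -0.299 in knockout sedentary ones and 0.377, 0.337 and 0.3 in knockout exercised. The exercised arrays of both genotypes overlapped. The effect was 0.69 in wild type and 0.63 in the knockout, and their difference of -0.06 was about the size of the pooled SD between arrays of a group, 0.06.

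The genes described next are those with the smallest p for the averaged effect. Impact, whose protein keeps the amino acid sensor GCN2 in check, lay at 7.42, 7.13 and 7.34 in wild-type sedentary arrays, 8.75, 8.42 and 8.90 in wild-type exercised ones, 7.17, 7.35 and 7.48 in knockout sedentary ones and 9.05, 8.86 and 8.80 in knockout exercised. The genotypes overlapped in each condition, and the difference was 0.17 (95% interval -0.22 to 0.57). Ppargc1a encodes PGC-1alpha, the coactivator of mitochondrial biogenesis. It went from 9.33, 8.98 and 9.24 to 10.15, 10.46 and 10.88 in wild type and from 8.70, 9.61 and 9.29 to 10.75, 11.003 and 10.95 in the knockout. It rose by 1.31 and 1.70, and the interval of the difference, -0.21 to 1.0, allows a knockout response up to 2-fold larger.

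For the genes that follow, the 95% intervals also included 0, unlike those of Apbb3 (-1.02 to -0.34) and Mt2 (-1.93 to -0.82) in this group. The phosphate carrier gene Slc20a1 had a difference of 0.30 (95% interval -0.13 to 0.73) and Arrdc3, an arrestin-domain protein, 0.31 (-0.09 to 0.72). Coq10b, which binds coenzyme Q, had -0.06 (-0.54 to 0.41), Tinagl1, a matrix protein, 0.04 (-0.30 to 0.39), and the cell cycle kinase gene Wee1 0.14 (-0.37 to 0.64). Pdxk, which makes active vitamin B6, had 0.13 (-0.38 to 0.64), and the clock repressor gene Ciart -0.16 (-0.88 to 0.57). The deubiquitinase gene Otud1 had 0.04 with an interval of -0.95 to 1.02. Its wild-type exercised arrays lay at 10.51, 9.10 and 8.96, so replicate 1 set the wild-type mean, and without both arrays the difference was 0.73.

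Sik1 was the kinase in this group whose interval did not include 0. The salt-inducible kinase restrains CREB coactivators and is itself induced by cyclic AMP. It went from 6.50, 6.51 and 6.80 to 8.33, 8.14 and 8.48 in wild type and from 6.73, 6.74 and 7.17 to 8.14, 8.20 and 7.73 in the knockout. Exercised arrays lay above sedentary ones in both genotypes. It rose by 1.72 and 1.14, a difference of -0.58 (95% interval -1.04 to -0.11, adjusted p = 0.997 with limma).

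**Figure D3:**
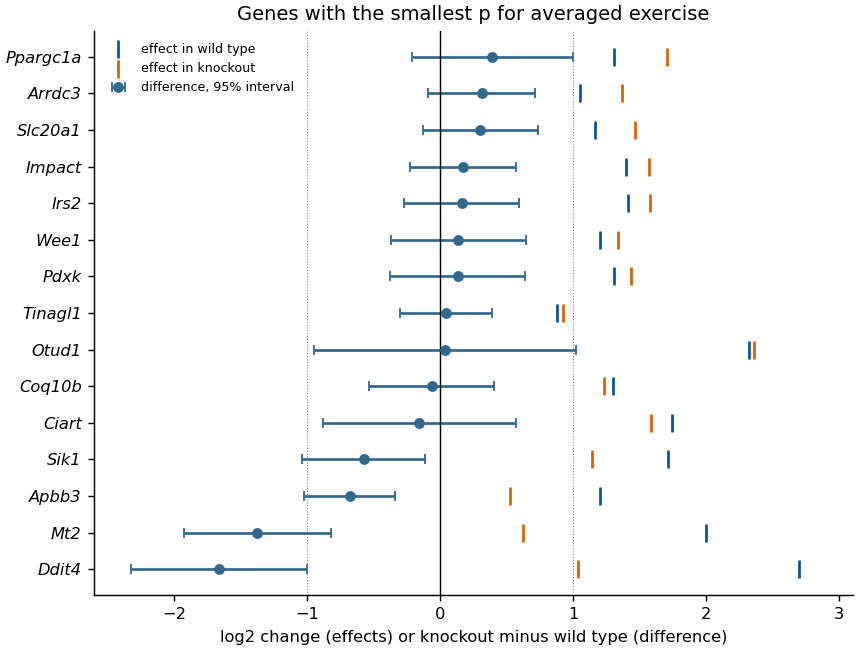
Exercise effects in wild type (blue ticks) and in REDD1 knockout (orange ticks) and their difference (circles) with its 95% interval (bars), in log2 units, for the 15 genes with the smallest p for exercise averaged over the genotypes. The intervals of Impact (-0.22 to 0.57) and Irs2 (-0.27 to 0.59) include 0, while those of Sik1 (-1.04 to -0.11) and Apbb3 (-1.02 to -0.34) lie below it.

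Immediate-early genes are the transcription factors and feedback genes switched on within minutes of contraction. Of 29 measured, 8 passed the test upward in wild type (0.473% of all genes) and 1 in the knockout (0.24%). For the difference, 0 of the 29 passed. Their median effect was 0.69 in wild type and 0.45 in the knockout. The median difference was -0.20, with 23 of 29 below 0 (46.8% of all genes) and 2 of them at an unadjusted p under 0.05 (2.36%). Without wild-type exercised replicate 1 it was 0.03, when 13 were below 0, against 52.9% of all genes, and 1 was lower at that p (2.64% of all genes). Junb, a subunit of the factor AP-1, lay at 5.81, 5.99 and 5.99 in wild-type sedentary arrays, 7.41, 6.36 and 6.97 in wild-type exercised ones, 6.26, 6.25 and 6.25 in knockout sedentary ones and 6.59, 6.13 and 6.07 in knockout exercised. All wild-type exercised arrays were above all wild-type sedentary ones, and the knockout groups overlapped. The difference was -0.97 (SE 0.29) and -0.73 without both arrays.

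The nuclear receptor genes Nr4a3 and Nr4a2 of the same list had wide intervals. Nr4a3 rose by 2.11 in wild type and 2.20 in the knockout. Its knockout sedentary arrays ranged from 5.62 to 8.15, and without both arrays its difference moved from 0.09 to 0.75. For Nr4a2 the wild-type exercised arrays ranged from 6.43 to 8.54, and the difference was -0.93 with a 95% interval of -2.12 to 0.27. Fosl2, another AP-1 subunit, rose by 1.36 in wild type with an effect of 0.80 in the knockout, and its difference of -0.56 became -0.22 without both arrays.

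For glucocorticoid receptor targets, the genotypes were apart at rest, with a median knockout minus wild type of 0.27, and close after exercise, at 0.01. Of 25 measured, 7 passed the test upward in wild type (0.473% of all genes) and 2 in the knockout (0.24%). The median effects were 0.61 and 0.44. The median difference was -0.22, with 19 of 25 below 0, against 46.8% of all genes. At an unadjusted p under 0.05, 5 were lower (2.36% of all genes) and 1 higher (2.15%). Leaving out any 1 array kept the median between -0.26 and -0.13. Per array the list's mean level was -0.364, -0.596 and -0.413 in wild-type sedentary arrays, 0.006, -0.027 and -0.158 in knockout sedentary, 0.284, 0.113 and 0.179 in wild-type exercised and 0.379, 0.339 and 0.259 in knockout exercised. The sedentary arrays did not overlap between genotypes, and the exercised arrays did. Plasma glucocorticoid was not measured, and the list shares genes with other groups described here, Mt1, Mt2 and Per1 among them. Its highest difference, 0.595, was also the highest of the REDD1 and mTORC1 list, where it belonged to Sesn1.

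Per1, a clock repressor that glucocorticoids also induce, separated by genotype in both conditions. It lay at 7.29, 7.81 and 8.33 in wild-type sedentary arrays, 9.13, 9.19 and 9.15 in wild-type exercised ones, 8.61, 8.46 and 8.42 in knockout sedentary ones and 8.81, 9.0 and 8.95 in knockout exercised. The knockout arrays lay between the wild-type groups. The difference was -0.92 (SE 0.25). Among 17 measured clock genes it was the only one at an unadjusted p under 0.05, and their median was 0.10. Without both arrays that stood apart the clock median was -0.06. Angptl4, a secreted inhibitor of lipoprotein lipase, had effects of 0.39 in wild type and -0.53 in the knockout and a difference of -0.92 (SE 0.29).

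Exercise-responsive metabolic genes had the same median effect in both genotypes. Of 23 measured, 6 passed the test upward in wild type (0.473% of all genes) and 6 in the knockout (0.24%). The median effect was 0.20 in each, and the median difference was 0.05, with 9 of 23 below 0 (46.8% of all genes). Without wild-type exercised replicate 1 it was -0.03, with 15 below 0 (52.9% of all genes). In that setting 4 were lower at an unadjusted p under 0.05 (2.64%). Without both arrays that stood apart it was -0.05, with 16 below 0. Over all arrays, Slc25a25, a mitochondrial ATP-magnesium carrier, was among the 3 lower at an unadjusted p under 0.05 (2.36% of all genes). It lay at 5.55, 6.40 and 6.59 in wild-type sedentary arrays, 8.02, 8.28 and 8.01 in wild-type exercised ones, 7.09, 6.16 and 7.13 in knockout sedentary ones and 7.76, 7.92 and 7.93 in knockout exercised. Exercised arrays lay above sedentary ones in both genotypes. The difference was -0.85 (SE 0.36).

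Among heat shock genes, the value of Hspa1b turned on a single array. Hspa1b encodes an inducible HSP70 and has a near-identical copy, Hspa1a, from which the arrays may not separate it. It lay at 9.07, 6.81 and 6.73 in wild-type exercised arrays and at 8.0, 8.21 and 7.89 in knockout exercised, against 5.85 to 6.34 in all 6 sedentary arrays. Only wild-type exercised replicate 1 lay above the knockout exercised arrays. The difference was 0.62 (SE 0.59) over all arrays and 1.47 without both arrays that stood apart, at a limma unadjusted p of 7.6e-06. In that setting, chosen after seeing the data, 0 genes were called and the smallest adjusted p was 0.105. Over 17 measured chaperone genes the median effect was 0.14 in wild type and 0.22 in the knockout, and the median difference stayed between 0.07 and 0.17 with any 1 array left out. Hspe1, the mitochondrial co-chaperonin, had 0.32 (SE 0.15). Of the unfolded protein response, the endoplasmic reticulum chaperone gene Hspa5 had 0.29 (SE 0.14), and the median over 21 genes was 0.04.

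Genes of protein breakdown and fuel handling had small median differences. Of 24 ubiquitin ligase and autophagy genes, 5 lay below 0, against 46.8% of all genes, and 0 reached an unadjusted p under 0.05. The median was 0.10. Fbxo32, the atrophy ligase atrogin-1, had effects of 0.10 and 0.54, and Trim63, the ligase MuRF1, 0.71 and 0.86. Of 25 oxidative phosphorylation subunits, 3 lay below 0, with a median of 0.10 over all arrays and 0.03 without both arrays that stood apart, and all 25 intervals lay between -1 and 1. Over 19 glycolysis and glycogen genes the median was 0.06, with 7 below 0 and 2 higher at an unadjusted p under 0.05 (2.15% of all genes). Without both arrays it was -0.06, with 12 below 0. The 2 were Gbe1 and Ppp1r3a. Gbe1, the glycogen branching enzyme, lay at 8.57, 8.66 and 8.84 in knockout sedentary arrays and 8.97, 9.21 and 9.0 in knockout exercised, with wild-type arrays between 8.83 and 8.99. Its difference was 0.37 (SE 0.14). Ppp1r3a, which brings a phosphatase to glycogen, had 0.30 (SE 0.14). The 13 fast-fibre contractile genes had a median of 0.01, and all 13 intervals lay between -1 and 1.

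The median of the slow-fibre list moved with single arrays. The mean level of its genes was -0.196, -0.467 and 0.5 in knockout sedentary arrays and 0.173, -0.076 and 0.5 in knockout exercised, so replicate 3 of each was the highest of its group. The median difference over 12 genes was 0.10, 0.55 without knockout sedentary replicate 3 and -0.03 without knockout sedentary replicate 2. Myh7, the slow myosin heavy chain, had 0.60 over all arrays and 1.25 without both arrays that stood apart.

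**Figure D4:**
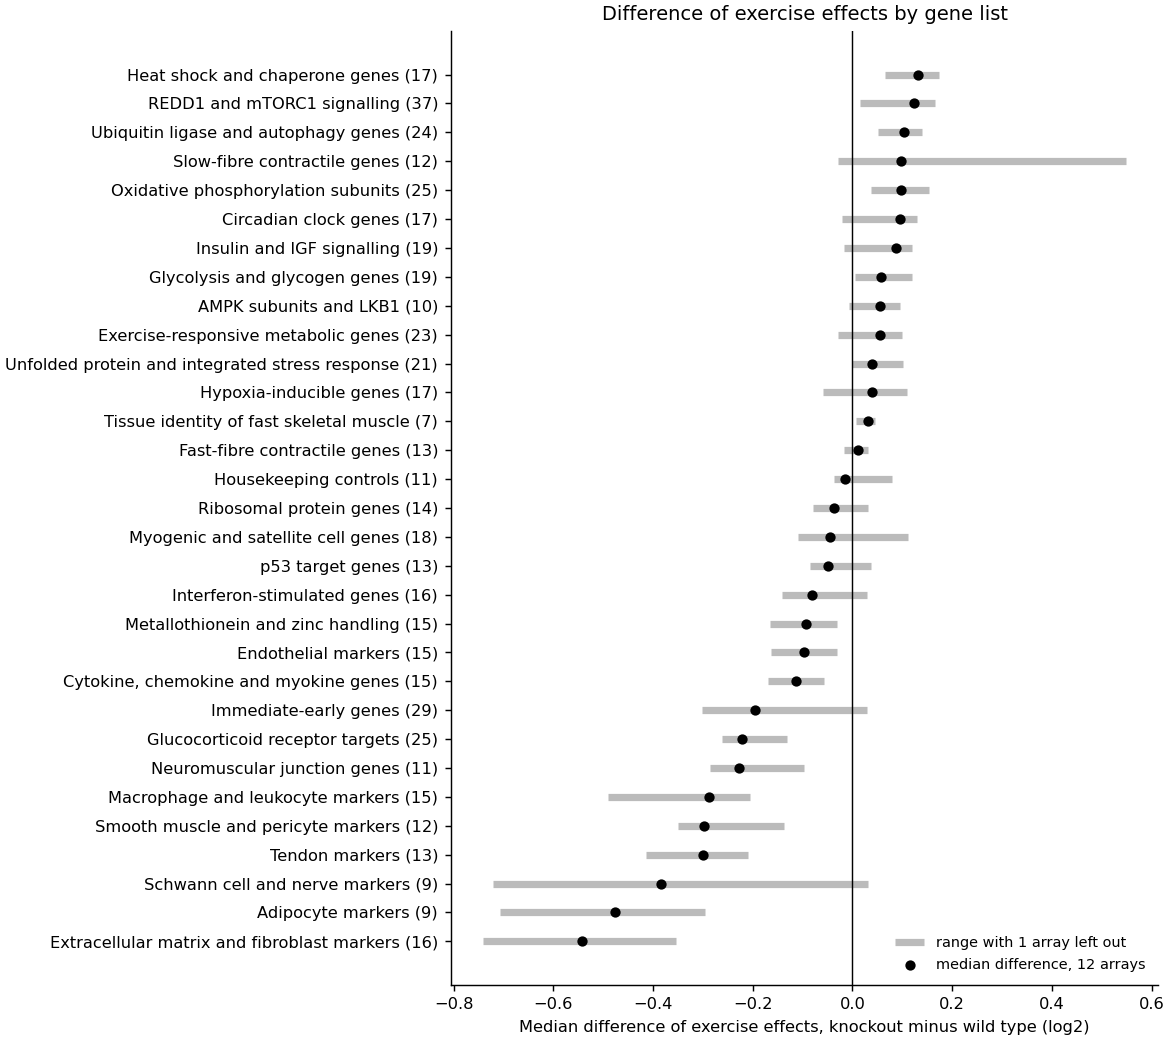
Median difference of exercise effects (knockout minus wild type, log2) over the measured members of each gene list, with the number measured in brackets, for lists with at least 5 measured; dots are medians over all 12 arrays and grey bars the range with 1 array left out. Matrix markers (-0.54) lie farthest below 0 and heat shock and chaperone genes (0.13) farthest above it, with REDD1 and mTORC1 signalling at 0.12. The immediate-early median moves from -0.20 to 0.03 without wild-type exercised replicate 1.

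Genes of connective tissue had the lowest median difference of the 33 lists. All 16 measured extracellular matrix and fibroblast markers were below 0, against 46.8% of all genes, and 11 of them had an unadjusted p under 0.05, where 2.36% of all genes did so in that direction. The median effect was 0.10 in wild type and -0.44 in the knockout, and the median difference was -0.54. Without knockout sedentary replicate 3 the median was -0.35, with 15 of 16 below 0 (46.0% of all genes there) and 6 at an unadjusted p under 0.05 (1.67%). Exercise passed the test for 0 of the 16 in either genotype. In a whole muscle, fewer cells of a type and less RNA per cell cannot be told apart.

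Col3a1, a fibrillar collagen of muscle connective tissue, lay at 8.48, 8.79 and 9.0 in wild-type sedentary arrays, 9.12, 9.30 and 9.11 in wild-type exercised ones, 9.24, 8.82 and 10.65 in knockout sedentary ones and 8.29, 8.48 and 8.57 in knockout exercised. Knockout sedentary replicate 3 was the highest of all, and with or without it the exercised arrays lay above the sedentary ones in wild type and below them in the knockout. The difference was -1.55 (SE 0.44) and -1.04 without both arrays that stood apart. Bgn, the proteoglycan biglycan, lay at 10.31, 9.996 and 10.57 in wild-type sedentary arrays, 10.55, 10.78 and 10.64 in wild-type exercised ones, 10.44, 10.40 and 11.40 in knockout sedentary ones and 9.95, 10.24 and 9.95 in knockout exercised. All knockout exercised arrays were below all knockout sedentary ones. The difference was -1.07 (SE 0.30) and -0.79 without both.

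The glycoproteins of remodelling matrix leaned on 1 array. Postn, periostin, lay at 7.84, 6.74 and 10.40 in knockout sedentary arrays and between 6.95 and 7.78 in the other 9. Its difference of -1.65 (SE 0.82) became -0.51 without both arrays. Tnc, tenascin C, lay at 8.44 in knockout sedentary replicate 3 and between 5.89 and 6.65 elsewhere, and its difference of -1.03 became -0.54. Col1a1, the chief tendon collagen, had -0.73 (SE 0.29) and -0.56 without both.

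Tendon markers, read on the same arrays as the matrix markers and so not an independent observation, also lay below 0. Their lowest difference, -1.07, equals that given above for Bgn, so the lists may also share genes. All 13 measured tendon markers were below 0 (46.8% of all genes) and 5 had an unadjusted p under 0.05 (2.36%). Their median of -0.30 stayed between -0.41 and -0.21 with any 1 array left out. Cilp, a cartilage and tendon matrix protein, lay at 8.10, 8.07 and 8.21 in knockout sedentary arrays, above all of the others, which ran from 7.30 to 7.96. The difference was -0.66 (SE 0.21). The mean level of the tendon list was 0.205, -0.018 and 0.334 in knockout sedentary arrays and -0.053, -0.22 and -0.291 in knockout exercised, and these did not overlap. In wild type the sedentary and exercised arrays overlapped, at -0.109 to 0.071 and -0.066 to 0.191.

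Markers of other cells mostly had medians below 0, with few or no members past an unadjusted p of 0.05. All 15 measured macrophage and leukocyte markers were below 0, against 46.8% of all genes, with a median of -0.29. At an unadjusted p under 0.05, 1 of them was lower (2.36% of all genes). It was Adgre1, the macrophage antigen F4/80, at -0.50 (SE 0.20). The mean level of this list was 0.174, -0.233 and 0.31 in knockout sedentary arrays and between -0.134 and -0.031 in knockout exercised, so the groups overlapped. Of 11 neutrophil markers 3 were measured, and the defining S100a8, S100a9 and Ly6g were too dim to test. All 9 adipocyte markers measured were below 0 (46.8% of all genes), with a median of -0.48 and 0 at an unadjusted p under 0.05. Their mean level was -0.485, 0.09 and -0.312 in wild-type sedentary arrays and -0.239, 0.378 and 0.201 in knockout sedentary ones, which overlapped. The exercised arrays of the genotypes overlapped as well. Smooth muscle and pericyte markers had a median of -0.30, which was -0.14 without wild-type exercised replicate 1. Schwann cell markers had -0.38, with 8 of 9 below 0 (46.8% of all genes). Their median was 0.03 when knockout sedentary replicate 3 was omitted and 0.01 when wild-type exercised replicate 1 was. Omitting both gave 0.38, with 1 of 9 below 0. The part of differing tissue makeup in the results above was not tested.

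Endothelial markers lay closer to 0. Over 15 measured markers the median difference was -0.10 and 0 reached an unadjusted p under 0.05. Kdr, the main receptor for vascular endothelial growth factor, went from 8.18, 8.07 and 8.07 to 7.25, 7.51 and 7.27 in wild type and from 7.80, 7.66 and 7.98 to 6.87, 7.20 and 6.84 in the knockout. Exercised arrays lay below sedentary ones in both genotypes. It fell by 0.76 in wild type and by 0.84 in the knockout, and the 95% interval of the difference ran from -0.45 to 0.28.

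**Figure D5:**
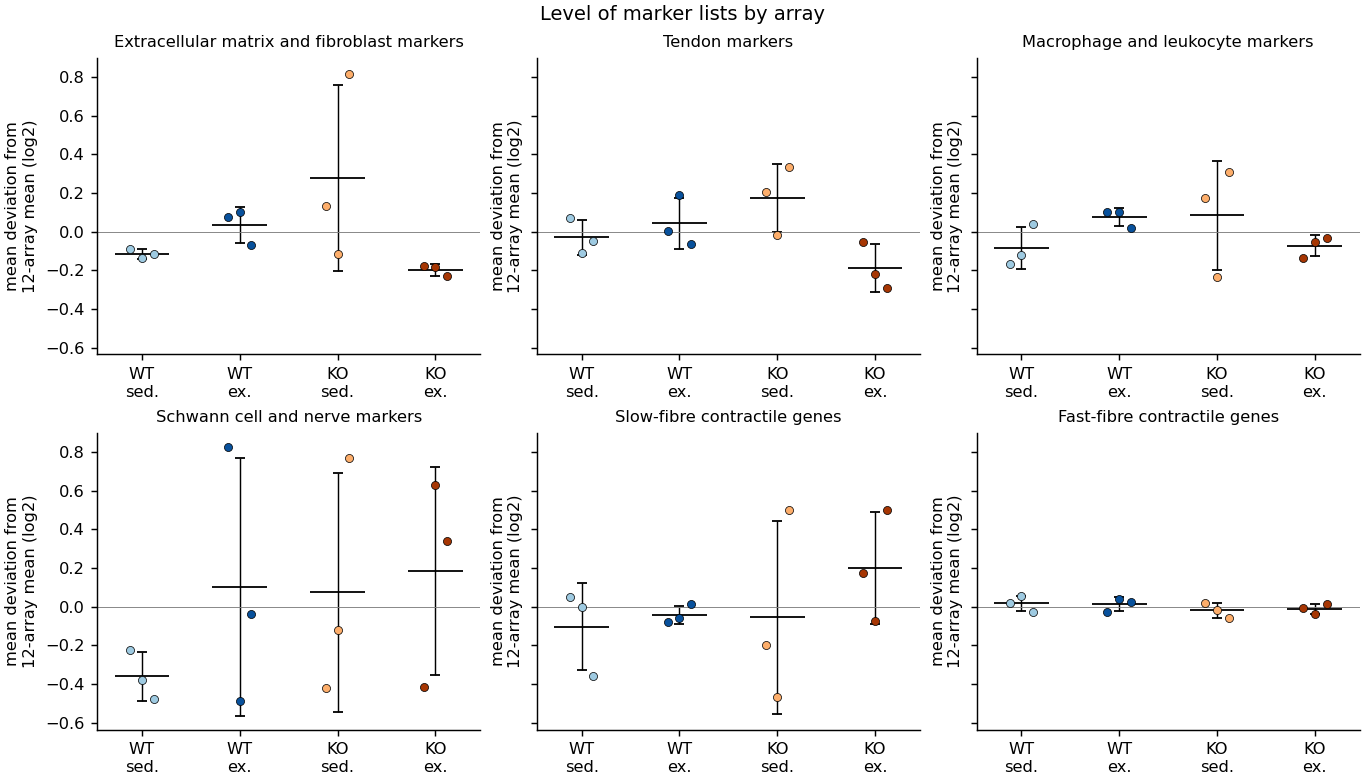
Mean level of marker lists on each array, as the deviation from the 12-array mean in log2 units, by group (WT, wild type; KO, knockout; sed., sedentary; ex., exercised); points are arrays, horizontal lines are means of 3 and vertical bars are SDs. The matrix markers of knockout sedentary replicate 3 lie at 0.815, and the Schwann cell markers of wild-type exercised replicate 1 at 0.828.

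Genes that changed in opposite directions in the genotypes were few. At an unadjusted p under 0.05 for exercise in both genotypes, 16 genes (0.116%) had opposite signs, 8 in each direction, against 299 (2.18%) with the same sign. At that p, 1128 genes changed in wild type and 1227 in the knockout. How many genes of opposite sign would arise without a true change was not worked out, so those named here are a description. Among those higher in wild type and lower in the knockout was Hpse, the heparan sulfate-cleaving enzyme heparanase, with effects of 0.39 and -0.35 and levels near the median of the table. Maob went the other way: it lay at 7.34, 7.24 and 7.31 in wild-type sedentary arrays, 7.0, 7.0 and 7.03 in wild-type exercised ones, 6.83, 6.86 and 6.61 in knockout sedentary ones and 6.93, 6.95 and 7.24 in knockout exercised. The sedentary arrays of the genotypes were separate and the exercised arrays overlapped. Mesp2, a transcription factor of the early embryo, had effects of -0.46 and 0.42, and Ldhal6b, a lactate dehydrogenase-like gene, -0.32 and 0.31.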

How the data were processed

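Biotin-labelled target from total RNA was hybridised to 12 Affymetrix whole-transcript arrays, per the labels. The authors deposited log2 values per transcript cluster, a scale inferred from values between 0.357 and 13.859. The base of the log, background correction and normalisation are not given in the sources used here. Partek is named in the submitters' processing notes. Clusters with 1 symbol in the platform annotation were used, 1 per gene (highest mean), and genes above the table median (4.56) in at least 3 arrays were tested.

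A single limma 3.58.1 fit (R 4.3.3; lmFit, then eBayes with trend) used 1 mean for each group and left 8 residual degrees of freedom. P-values are two-sided and adjusted by Benjamini-Hochberg over 13747 genes. The script was tested on simulated data. The labels do not say how animals map to arrays or name a batch. Their running sample numbers pair nothing, so p-values measure the spread between these arrays, whose number limits the precision.

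Members and 33 gene lists were chosen with earlier results of these data known. Named were Ddit4, the 12 genes of smallest p for the difference in each direction, the 15 of smallest p for averaged exercise, up to 4 plus 3 members per list by exercise effect and by p for the difference, all members of the REDD1 and zinc lists, and up to 8 genes of opposite sign. Predicted gene models were passed over.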

Additional observations from a re-analysis of the deposited data

How the results depend on the processing

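The count of genes whose exercise effect differed between genotypes was 0 under all 22 other gene-level settings of limma and analysis of variance and over all 22506 bright transcript clusters, with 478 to 961 features at an unadjusted p under 0.05 and a smallest adjusted p from 0.0574 (without knockout exercised replicate 2) to 1.0. The counts for exercise alone moved with the estimate of the spread: in wild type 78 became 12 by analysis of variance without moderation and 127 with array weights, in the knockout 38 became 0 (1124 at an unadjusted p under 0.05), 83 and, with no intensity trend, 24, and averaged over genotypes 220 became 67 and 348. With 1 array left out they ranged from 46 to 90, from 16 to 71 and from 144 to 220. Wild-type exercised replicate 3 and wild-type sedentary replicate 1 gave the lowest wild-type (46 each) and averaged counts (144 each). For the knockout, leaving out exercised replicate 1 of that genotype gave 16, exercised replicate 3 gave 19 and sedentary replicate 1 gave 20, while leaving out wild-type exercised replicate 1 gave 71. The median turned difference of the responsive genes was -0.11 by analysis of variance and ran from -0.13 (without wild-type sedentary replicate 3) to 0.0082 with 1 array left out. The cause of these shifts was not tested. No value under any setting run changed direction after being called. No paired analysis was possible because the labels number the samples in 1 running series and tie no array of a group to an array of another. Omitting knockout sedentary replicate 3 and wild-type exercised replicate 1 together was chosen after seeing the data.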

Other observations

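Of 16 interferon-stimulated genes, 10 were below 0, against 46.8% of all genes, with a median difference of -0.08. Ifit3, which restrains viral RNA translation, had effects of 0.12 in wild type and -0.41 in the knockout, and Iigp1, an interferon-induced GTPase, had 0.08 and -0.81, with levels that no test called. Of 13 p53 targets, 8 were below 0 (46.8% of all genes), with a median of -0.05. Trp53inp1, which promotes autophagy and cell death under stress, rose in both genotypes, by 0.72 and 0.67. The median was 0.04 over 17 hypoxia-inducible genes, -0.04 over 14 ribosomal protein genes and -0.01 over 11 housekeeping controls. Without wild-type exercised replicate 1 the hypoxia-inducible median was -0.06 and the ribosomal one 0.01. Without both arrays that stood apart the hypoxia-inducible median was 0.15.

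Genes of the motor endplate had a median difference of -0.23, with 8 of 11 below 0 (46.8% of all genes). At an unadjusted p under 0.05, 1 of them was lower (2.36% of all genes). Without wild-type exercised replicate 1 the median was -0.29, with 8 of 11 below 0 (52.9% of all genes) and 4 lower at that p (2.64%). Without both arrays that stood apart it was -0.30. The subunit genes of the acetylcholine receptor had differences of -0.33 (Chrna1), -0.39 (Chrnb1), -0.10 (Chrne) and -0.64 (Chrng, the embryonic subunit, unadjusted p = 0.0417 with limma). Musk, the kinase that clusters these receptors, had -0.24. Over 18 myogenic and satellite cell genes the median was -0.05. Myod1, the myogenic determination factor, had effects of -0.58 in wild type and -0.67 in the knockout. Of 24 cytokine, chemokine and myokine genes, 15 were measured, with a median of -0.11. Il6ra, the interleukin 6 receptor, rose by 0.66 in wild type and had an effect of 0.51 in the knockout. Il6, Il1b and Tnf were too dim to test.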
